A study of Mus musculus with 6 samples.

Results

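The mitochondrial genome of the mouse encodes 37 RNAs, and all 37 have a row in the table of CD34-negative KSL cells analysed here, among 51826 rows in total. Members were chosen by name and place: the row had to begin with mt- and lie on chromosome MT. They are 13 messenger RNAs (mRNAs), 2 ribosomal RNAs (rRNAs) and 22 transfer RNAs (tRNAs). By annotation 12 mRNAs, both rRNAs and 14 tRNAs lie on the plus strand, and mt-Nd6 and 8 tRNAs lie on the minus strand. All 37 have the same positions in the GENCODE M21 annotation.

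The KSL gate keeps bone marrow cells that carry Kit and Sca-1 and lack lineage markers, and its CD34-negative part is rich in hematopoietic stem cells with long-term activity. RNA sequencing was done on 2 libraries from wild-type (WT) cells and 4 from cells with a knockout of Elovl6 (KO), an enzyme that lengthens fatty acids, and the series asks what its loss does to gene expression in these cells. The labels give the genotype and a number only: no strain, age, sex, allele or promoter is stated, nor whether each library came from its own animal, so the spread behind each p-value may be technical. The libraries held between 11433980 and 15305123 mapped reads. Values of single libraries are given in the order of the replicate numbers, 1 and 2 for WT and 1 to 4 for KO.

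Mitochondrial DNA is transcribed from both strands into long precursors, which are cut, mostly at the tRNAs that sit between the other genes, and the mRNAs then receive poly(A) tails. The mRNAs encode subunits of respiratory complexes I, III, IV and V, and the rRNAs and tRNAs serve the mitochondrial ribosome. Adult hematopoietic stem cells are known for relying on oxidative phosphorylation less than their progeny do. A stretch of chromosome 1 holds a nuclear copy of part of the mitochondrial genome, and short reads from the shared letters can be placed at both sites.

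That copy was visible in the reference sequences. 7 annotated pseudogene rows on the minus strand of chromosome 1, between 24611535 and 24616197 (mm10), match members base for base over most of their length. Gm28437 equals mt-Co3 over 783 bases, Gm28661 equals mt-Co2 over 681 bases, Gm10925 equals mt-Atp6 over 678 bases and Gm10222 equals mt-Nd4l over 294 bases, each with 0 differences. Gm28439 equals the first 876 bases of mt-Nd4, which is 63.6% of that gene. Gm28438 differs from mt-Nd3 at 1 of 345 bases, and Gm29216 differs from the end of mt-Co1 at 6 of 492 bases. The stretches that carry these differences are shown because they decide where a read can be placed. They are read 5′ to 3′ on the strand of the member, from the GENCODE M21 transcripts (mm10 coordinates), with capitals at the differing bases.
mt-Nd3, MT:9459-9530, plus strand: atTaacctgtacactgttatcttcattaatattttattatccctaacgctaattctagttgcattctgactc
Gm28438, 1:24613048-24613119, minus strand: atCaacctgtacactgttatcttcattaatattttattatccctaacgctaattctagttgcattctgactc
mt-Co1, MT:6381-6452, plus strand: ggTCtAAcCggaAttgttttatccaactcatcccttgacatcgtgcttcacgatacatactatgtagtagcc
Gm29216, 1:24616126-24616197, minus strand: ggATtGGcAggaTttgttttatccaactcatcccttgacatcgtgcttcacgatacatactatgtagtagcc
The one difference in mt-Nd3 is T3C, counted from 1 at the first base of the gene, which is base 9461 of chromosome MT. In mt-Co1 the differences are T1056A, C1057T, A1059G, A1060G, C1062A and A1066T, counted likewise, and the letters after them are the same in both rows.

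The reads followed this copy. In the authors' expression values, which are counts, most reads with several possible places are left out, and total gene reads are counts that keep them. Between 51.6% and 53.8% of the total gene reads of the 13 mRNAs were not placed once in the 6 libraries. In mt-Nd1 and mt-Atp8 100% of exon reads were placed once, in mt-Cytb and mt-Nd6 at least 99.6%, and in mt-Nd2 and mt-Nd5 at least 95.7%. None of these 6 has a copy annotated to it in the stretch, though mt-Atp8 shares 43 bases with mt-Atp6, which Gm10925 copies. The bases between the annotated rows were not compared with the members, so whether they copy mt-Atp8 or tRNAs is not known here. The genes copied over nearly their whole length were the other extreme: the share placed once was 0.678% to 0.887% in mt-Atp6, 0.655% to 0.849% in mt-Co2, 0.489% to 0.776% in mt-Co3 and 0.218% to 1.12% in mt-Nd4l. mt-Nd3, copied over 99.1% of its length with the single difference, had 1.20% to 5.17% of its exon reads placed once, a wider range than in these 4 genes. mt-Co1 and mt-Nd4, copied in part, lay between them at 48.5% to 50.6% and 54.6% to 59.0%. For every mRNA the WT and KO ranges of this share overlapped.

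**Figure D1:**
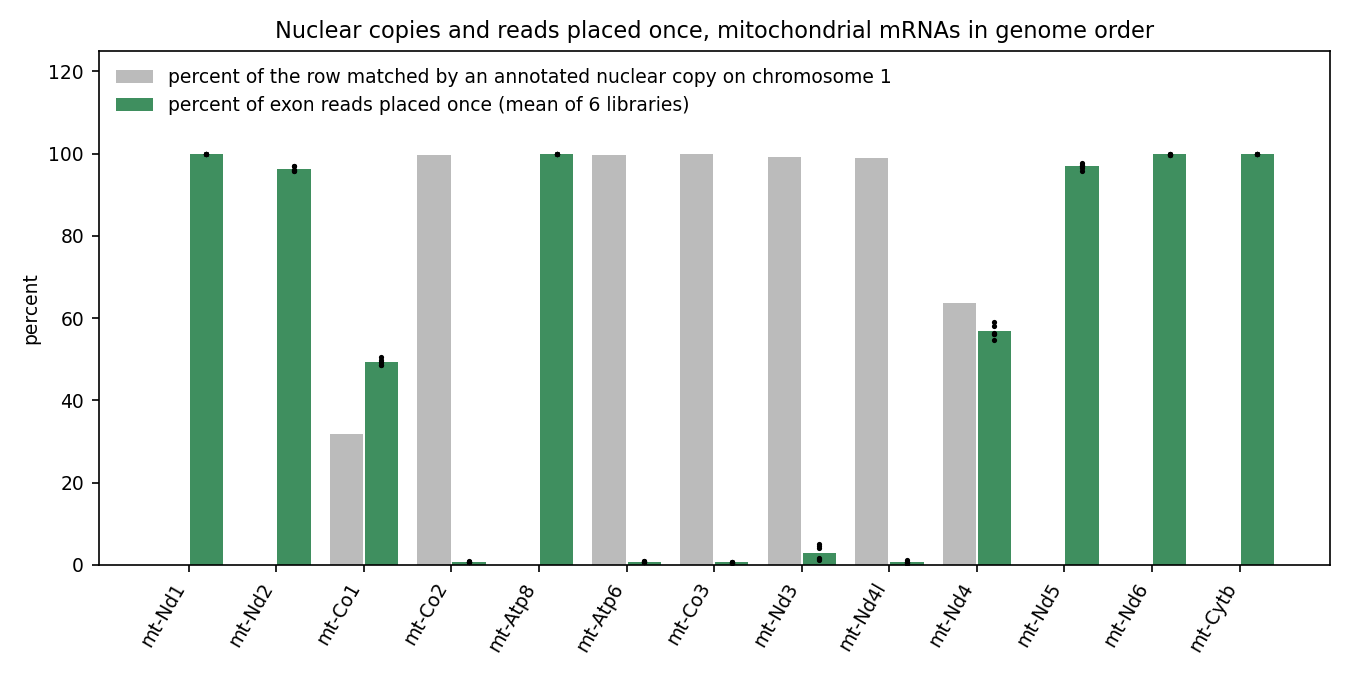
For each mRNA in genome order, the grey bar is the percent of its length matched by an annotated copy on chromosome 1 and the green bar the percent of exon reads placed once (mean of 6 libraries, black points single libraries). Genes with grey bars near 100% have green bars near 0%, as in mt-Co2 (99.6% matched). mt-Atp8, with no annotated copy of its own, stands at 100%.

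Levels are therefore given as total gene reads scaled by the length of the row and by the mapped reads of the library, in the unit of RPKM, on which genes of different length can be compared. The rRNAs of the mitochondrial ribosome led. mt-Rnr1, the RNA of the small subunit, stood at 20046 and 24976 in WT and at 22721, 24358, 16366 and 11502 in KO. mt-Rnr2, that of the large subunit, stood at 17142 and 21030 in WT and at 18508, 19682, 13266 and 10026 in KO. Both were lowest in KO replicates 3 and 4, and the groups overlapped. mt-Rnr1 was above mt-Rnr2 in all 6 libraries.

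Among mRNAs, mt-Co1, the catalytic core of cytochrome c oxidase, was at 1386 and 1498 in WT and at 1497, 1593, 1018 and 795 in KO. mt-Atp6, the proton channel subunit of ATP synthase, was at 1278 and 926 in WT and at 1359, 1243, 1022 and 886 in KO. These were the 2 highest mRNAs on average, at 1298 and 1119 over the 6 libraries, and they held that order in 4 of 6 libraries. mt-Co3, a core subunit of complex IV, came next at 309 to 664, clear of mt-Atp6 in every library. Below it were mt-Co2, the complex IV subunit that takes electrons from cytochrome c (234 to 434), mt-Cytb, the cytochrome b of complex III (204 to 409), mt-Atp8, the small partner of mt-Atp6 (168 to 391), and mt-Nd1 (174 to 385). The other complex I subunits were lowest: mt-Nd6 (135 to 238), mt-Nd5 (105 to 224), mt-Nd2 (109 to 217), mt-Nd4 (108 to 201), mt-Nd4l (83.1 to 166) and mt-Nd3 (49.2 to 137). Of neighbours in this order, mt-Atp6 and mt-Co3 were the only pair whose ranges over the 6 libraries did not overlap. Compared within each library, the order also held in all 6 for mt-Co3 over mt-Co2 and mt-Nd1 over mt-Nd6. The same was true of mt-Nd4 over mt-Nd4l and mt-Nd4l over mt-Nd3. Every other pair of neighbours traded places in some library. mt-Atp8 shares 43 bases with mt-Atp6, mt-Nd4l 7 with mt-Nd4 and mt-Nd6 14 with mt-Nd5 on the other strand, and the sources do not say whether counting used the strand.

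**Figure D2:**
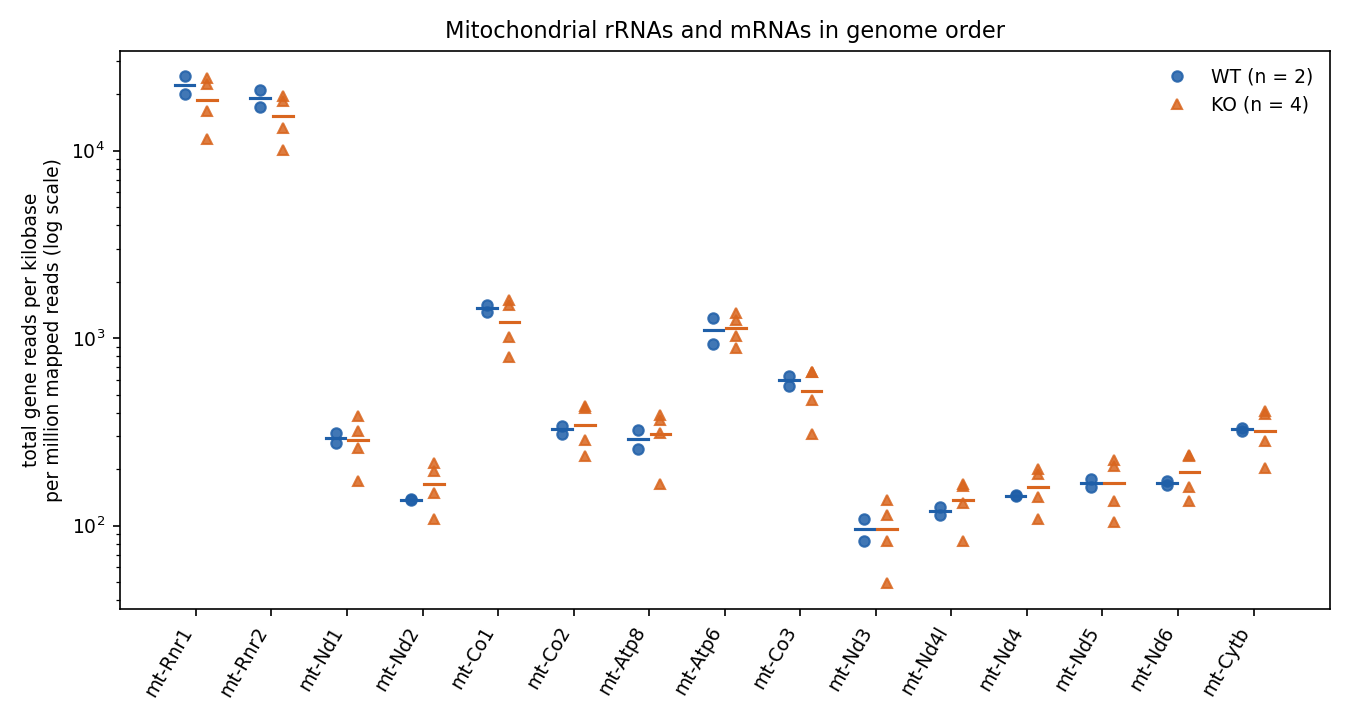
RPKM from total gene reads (log axis) of the 2 rRNAs and 13 mRNAs in genome order, with WT libraries as circles, KO libraries as triangles and group means as lines. The rRNAs sit at 10026 or above, mt-Co1 and mt-Atp6 between 795 and 1593 and mt-Nd3 lowest, and WT and KO points overlap in every gene.

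The tRNA rows are 59 to 75 bases long, and a read counted there may come from a tRNA or from a longer transcript across it, which the table does not separate. The leading rows and the emptiest ones are shown with the anticodon in capitals (GENCODE M21, mm10, plus strand), because the reads were so unevenly spread over RNAs of like length.
mt-Tg, glycine, MT:9391-9458: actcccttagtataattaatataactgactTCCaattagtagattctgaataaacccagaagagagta
mt-Th, histidine, MT:11546-11612: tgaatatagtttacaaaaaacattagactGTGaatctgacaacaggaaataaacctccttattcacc
mt-Tv, valine, MT:1025-1093: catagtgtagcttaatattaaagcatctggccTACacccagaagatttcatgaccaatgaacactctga
mt-Tk, lysine, MT:7700-7764: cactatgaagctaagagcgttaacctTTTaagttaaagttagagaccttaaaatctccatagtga
mt-Td, aspartate, MT:6942-7011: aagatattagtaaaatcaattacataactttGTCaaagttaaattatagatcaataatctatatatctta
mt-Tw, tryptophan, MT:4950-5016: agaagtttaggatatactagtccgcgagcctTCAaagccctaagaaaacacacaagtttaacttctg
mt-Tg, which lies between mt-Co3 and mt-Nd3, had 2146 and 4527 total gene reads in WT and 5162, 3388, 3283 and 4639 in KO. That was 43.7% to 55.9% of all tRNA reads of a library. mt-Th followed with 694 and 1492 reads in WT and 1675, 1251, 1033 and 1043 in KO. With mt-Tv and mt-Tk these rows held 77.4% to 84.0% of the tRNA reads. At the other end, mt-Td, with the lowest GC content of the 37 members (17.1%), had 1 read in WT replicate 2 and 0 in the other libraries. mt-Tw had 1 read in WT replicate 2 and 1 in KO replicate 3, and mt-Ts1 had 0 to 2 reads, mt-Ty 0 to 3, mt-Tn 0 to 4 and mt-Ts2 2 to 12. Per kilobase, mt-Tg was clear of mt-Th in every library, while mt-Th and mt-Tv had overlapping ranges, though mt-Th was the higher within each of the 6 libraries. Minus-strand tRNAs held 12.0% and 12.5% of tRNA reads in WT and 10.3%, 11.8%, 9.13% and 8.12% in KO, lower in all KO libraries, though KO replicate 2 lay close to WT. All minus-strand members, mt-Nd6 included, went the other way as a share of all mitochondrial reads, most of which are rRNA reads. They held 0.265% and 0.281% in WT and 0.336%, 0.301%, 0.329% and 0.418% in KO. No test was run on these shares.

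**Figure D3:**
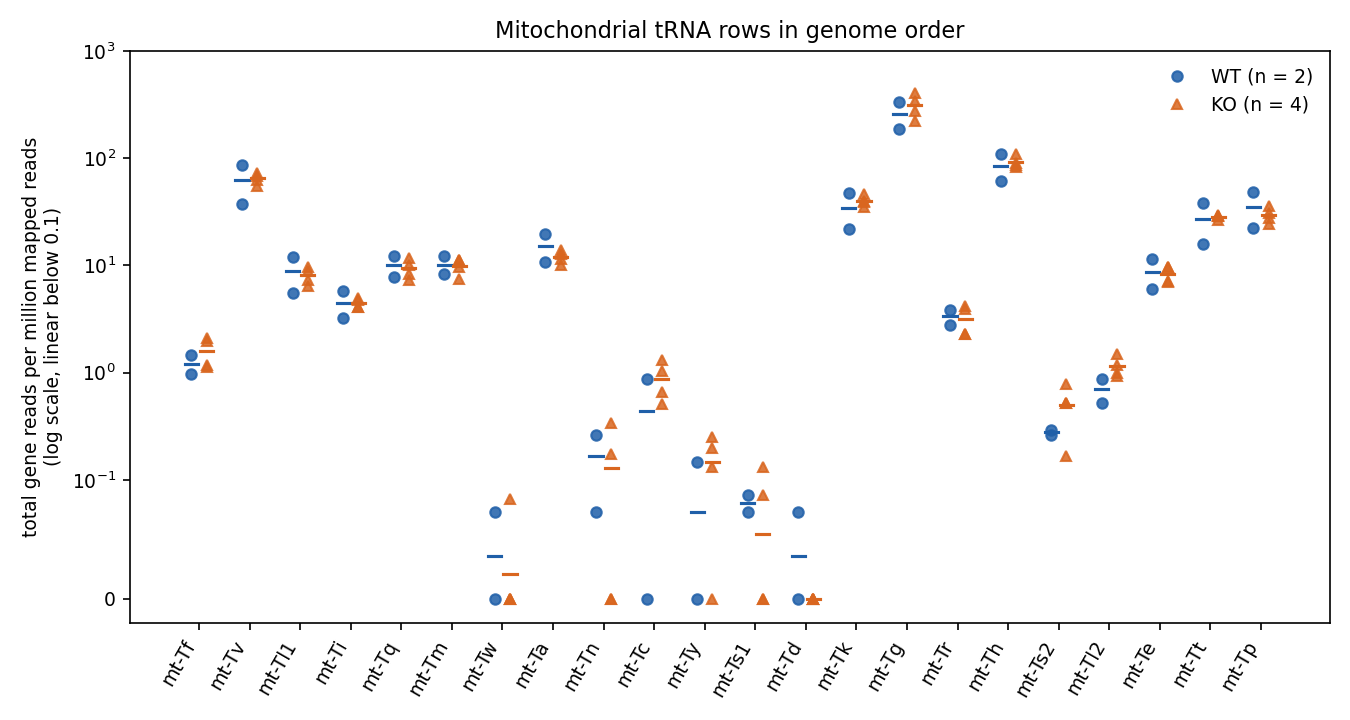
Total gene reads scaled by mapped reads (log axis, linear below 0.1) of the 22 tRNA rows in genome order, with WT libraries as circles, KO libraries as triangles and group means as lines. mt-Tg stands highest, mt-Tw and mt-Td lie at or near 0, and WT replicates 1 and 2 bracket the KO points in many rows.

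By class, rRNAs took 4.63% and 5.71% of mapped reads in WT and 5.10%, 5.44%, 3.66% and 2.68% in KO. mRNAs took 0.513% and 0.525% in WT and 0.605%, 0.605%, 0.422% and 0.323% in KO. tRNAs took 0.0392% and 0.0739% in WT and 0.0699%, 0.0506%, 0.0572% and 0.0721% in KO. The groups overlapped in all 3 classes, and the low rRNA and mRNA shares were those of KO replicates 3 and 4. In these libraries a single other row, the rRNA-like CT010467.1, took 22.0% and 27.9% of mapped reads, against 11.4% to 14.8% in the other libraries. Of the mapped reads outside that row, KO replicates 3 and 4 were still lowest, with mRNA shares of 0.541% and 0.449% against 0.589% to 0.691% and rRNA shares of 4.70% and 3.73% against 5.31% to 6.70%. As a percent of the authors' expression values, in which CT010467.1 counts for less, mitochondrial mRNAs stood at 0.747% and 0.884% in WT and at 0.834%, 0.927%, 0.821% and 0.790% in KO. The means of 0.815% ± 0.097 (SD, n = 2) and 0.843% ± 0.059 (SD, n = 4) differed by less than the spread within either group. In bulk RNA, fewer cells rich in mitochondria and less mitochondrial RNA per cell cannot be told apart.

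The whole table was tested once on expression values and once on total gene reads, since rRNAs and tRNAs have an exon length of 0 and expression values of 0. Elovl6 itself had 111 and 147 counts in WT and 106, 61, 56 and 18 in KO, a log2 fold change of -1.12 (SE 0.32) with an adjusted p of 0.346 (edgeR quasi-likelihood test). The labels do not give the deleted part of the gene, so counts over the whole gene check little. Of the marker lists, that of stem cells summed to 2343 to 3581 in the 6 libraries, in counts scaled to library size (CPM), and none of its 10 genes was at 0 in all. Ly6a, the gene of Sca-1, was lower in every KO library than in WT. It was at 65.8 and 75.5 CPM in WT and at 47.7, 52.1, 50.8 and 32.1 in KO. Hoxb5 was higher in every KO library, at no more than 1.06 CPM, and the other genes of this list overlapped. Markers of other cells varied between libraries, some with single KO libraries and some with genotype. The neutrophil and monocyte list summed to 6488 CPM in KO replicate 4 and to 136 to 1116 elsewhere, with 7 of 8 genes matched and none at 0 in all. The B-lineage list summed to 697 CPM in KO replicate 1 and to 101 to 259 elsewhere, and the progenitor list to 2669 and 913 to 1352. Within these lists Pax5, Ebf1 and Dntt were higher in every KO library than in WT, and the other genes overlapped. Pax5 was at 26.9 and 26.2 CPM in WT and at 233, 44.9, 50.1 and 84.9 in KO. Dntt was at 232 and 265 CPM in WT and at 1512, 277, 341 and 289 in KO. The erythroid list summed to 1454 CPM in KO replicate 4 and to 88.0 to 405 elsewhere. Hbb-bs and Hba-a1 of this list were higher in every KO library than in WT, and its other genes overlapped. In every KO library the megakaryocyte and platelet list was lower than in WT, 36.6 to 91.0 against 135 and 145 CPM. The T and NK list was higher in every KO library, 17.04 to 24.9 against 11.02 and 11.2 CPM. Nkg7 made up most of that sum, at 7.56 and 9.70 CPM in WT and 12.5 to 20.8 in KO. Cd3e and Cd3d had lower means in KO, and Cd3g, Cd8a and Ncr1 higher ones, all at low counts. The mast cell and basophil list overlapped at 1.91 to 10.8 CPM. The part of these markers in the values below was not tested.

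No mitochondrially encoded RNA differed between KO and WT past the threshold. On expression values 12 of the 13 mRNAs passed the filter on low counts (mt-Nd4l, with 1 to 8 counts a library, did not), and 0 were called, where 19 of all 11969 genes tested were (0.159%, edgeR quasi-likelihood test, adjusted p under 0.05). At an unadjusted p under 0.05, 3 of the 12 stood, against 9.9% of all genes. DESeq2 and limma-voom called 0 of the members too. 9 of the 12 had log2 fold changes above 0 and 3 below, with a median of 0.17, against 51.0% above 0 and a median of 0.01 over all genes. On total gene reads 31 of the 37 members were tested, 0 were called by any of the 3 tools, and 2 had an unadjusted p under 0.05, against 0.153% called and 8.06% under 0.05 among 15018 genes. Of these 31, 25 had log2 fold changes above 0, against 52.0% of all genes. In the authors' deposited table the adjusted p of every member is 1.

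The 3 mRNAs at the head of the list encode complex I subunits. mt-Nd2, a core subunit of the membrane arm, was at 429 and 479 CPM of expression values in WT and at 661, 612, 615 and 599 in KO. Every KO library lay above both WT libraries. Its log2 fold change was 0.45 (SE 0.12), with an adjusted p of 0.320 (edgeR quasi-likelihood test) and a value of 0.41 (SE 0.15) on total gene reads. mt-Nd6, the one mRNA of the minus strand, was at 265 and 284 CPM in WT and at 349, 365, 318 and 365 in KO. Again no KO library reached down to WT, with a log2 fold change of 0.35 (SE 0.13) and an adjusted p of 0.434 in the same test. mt-Nd4, a membrane-arm subunit with a proton channel, was at 355 and 394 CPM in WT and at 455, 453, 452 and 484 in KO, a log2 fold change of 0.30 (SE 0.12) with an adjusted p of 0.468. These 3 of 12 tested mRNAs had all KO libraries above WT, and with mt-Co3, which had all of them below, 4 of 12 had groups that did not overlap, against 20.3% of all genes. On total gene reads the groups did not overlap in 4 of 31 members, mt-Nd4l with these 3, against 18.7% of all genes.

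Of the other complex I mRNAs, mt-Nd1 and mt-Nd5 stood at 0.12 (SE 0.14) and 0.14 (SE 0.15) on the log2 scale with overlapping groups. mt-Nd4l, tested on total gene reads only, stood at 0.30 (SE 0.15, adjusted p = 0.673, edgeR quasi-likelihood test), with all KO libraries above WT, beside 0.28 (SE 0.15) for mt-Nd4 on the same reads. mt-Nd3 took opposite signs on the read counts compared, -0.87 (SE 0.66) on expression values and 0.09 (SE 0.23) on total gene reads. In complex III, mt-Cytb was at 1111 and 1311 CPM in WT and at 1343, 1444, 1293 and 1258 in KO, a log2 fold change of 0.14 (SE 0.12).

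In complex IV, mt-Co1 was at 3318 and 3905 CPM in WT and at 3345, 3799, 3134 and 3324 in KO. KO and WT overlapped, with a log2 fold change of -0.09 (SE 0.12). mt-Co3 was at 10.5 and 11.7 CPM in WT and at 7.87, 7.93, 7.33 and 9.30 in KO, the 1 tested mRNA with all KO libraries below WT on expression values. Its log2 fold change of -0.46 (SE 0.36, adjusted p = 0.710, edgeR quasi-likelihood test) rests on the under 1% of its reads that were placed once. On all its reads the value was -0.08 (SE 0.18). mt-Co2 was at 0.25 (SE 0.46) and 0.20 (SE 0.16) on these counts. In complex V, mt-Atp6 was at 0.19 (SE 0.27) and mt-Atp8 at 0.25 (SE 0.18) on expression values, with overlapping groups.

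The rRNAs had log2 fold changes of -0.16 (SE 0.27, adjusted p = 0.905, edgeR quasi-likelihood test) for mt-Rnr1 and -0.20 (SE 0.28, adjusted p = 0.881) for mt-Rnr2 on total gene reads. Of the 22 tRNAs 16 were tested, 14 above 0 and 2 below, with a median of 0.20 and standard errors from 0.28 to 1.10. This direction hung on single libraries. Per mapped read, WT replicate 1 had the lowest level in 12 of the 16 and WT replicate 2 the highest in 10. On the CPM of the fit, WT replicate 1 was again lowest in most. KO replicate 4 was highest there in all but mt-Ta, mt-Tf, mt-Tl1 and mt-Tp. mt-Tg, for example, was at 178 and 352 CPM in WT and at 327, 199, 321 and 654 in KO. Without WT replicate 1 the median was -0.17, without WT replicate 2 it was 0.84, and without KO replicate 4 it was -0.05. The ratio of rRNA to mRNA reads was 9.02 and 10.9 in WT and 8.43, 8.99, 8.68 and 8.30 in KO. All KO libraries were lower than WT replicate 1, each by less than the WT libraries differed from each other.

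Within the mitochondrial mRNAs, complex I made up 37.01% and 37.7% of expression values in WT and 42.6%, 39.7%, 41.7% and 41.4% in KO. Complex IV made up 45.4% and 44.7% in WT and 38.9%, 41.7%, 39.0% and 40.7% in KO. The groups did not overlap in either, with means of 37.4% ± 0.49 (SD, n = 2) and 41.4% ± 1.2 (SD, n = 4) for complex I, and 45.1% ± 0.53 and 40.1% ± 1.4 for complex IV. Total gene reads, which keep reads shared with the nuclear copy, gave the same separation: 20.5% and 21.5% in WT against 24.3%, 23.0%, 23.7% and 22.6% in KO for complex I, and 54.4% and 58.0% against 51.7%, 54.1%, 50.7% and 50.4% for complex IV. For complex IV, KO replicate 2 lay close to WT replicate 1 on total gene reads. mt-Co1 carried most of the complex IV share. On expression values it was nearly all of it, at 45.2% and 44.5% in WT. There mt-Co2 and mt-Co3 kept only reads placed once, at most 0.849% and 0.776% of their exon reads. On total gene reads mt-Co1 made up 41.7% and 44.1% of the mRNAs in WT and 37.3% to 40.7% in the KO libraries. On the complex I side mt-Nd2 made up 2.80% and 2.71% in WT and 3.72%, 3.37%, 3.68% and 3.49% in KO. Complex III overlapped on total gene reads and not on expression values, and complex V overlapped on both. Shares sum to 100%, so a lower one raises the others, and no test was run on them. Without KO replicates 3 and 4, the difference in means was 3.82 percentage points for complex I and -4.75 for complex IV on expression values, against 4.01 and -4.98 with them.

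**Figure D4:**
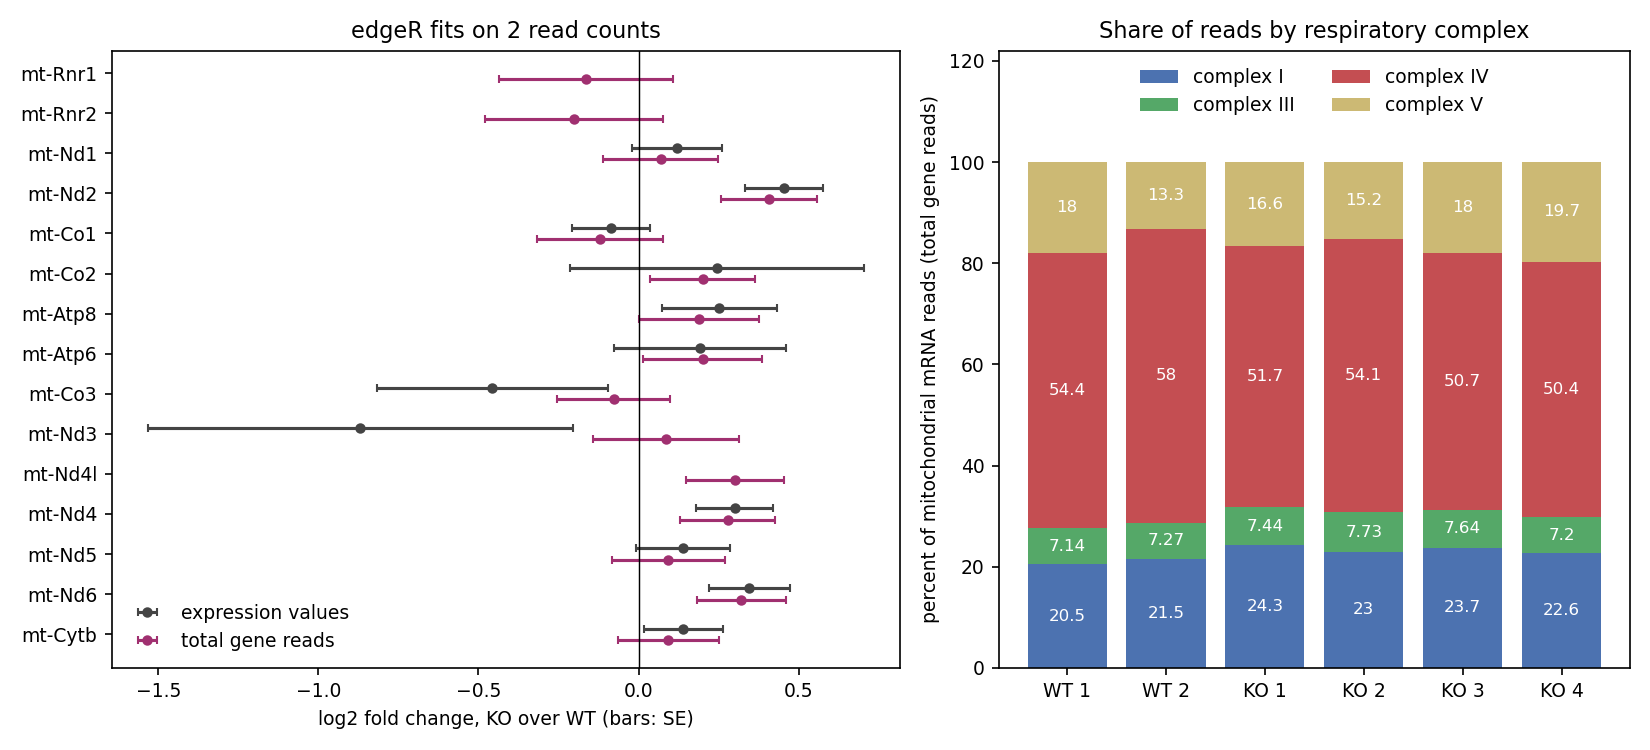
Left, log2 fold changes of KO over WT with standard errors for the rRNAs and mRNAs in genome order, from edgeR on expression values (grey) and total gene reads (purple). Right, the percent of total gene reads of the 13 mRNAs by respiratory complex in each library, where complex I is 20.5% and 21.5% in WT and at least 22.6% in KO.

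Of the members and their copies, the widest contrast between the genotypes lay in the nuclear copy of mt-Nd3, a core subunit gene of complex I. Gm28438, the copy with the single difference T3C, had 3 and 0 reads placed once in WT and 60, 81, 64 and 25 in KO. Every KO library held more than both WT libraries together. The reads placed once at mt-Nd3 went the other way, with 23 and 51 in WT and 29, 17, 7 and 14 in KO. Of the reads placed once at either row, the copy held 11.5% (exact 95% binomial interval 2.45% to 30.2%) and 0% (0 of 51 reads, upper limit 6.98%) in WT. In KO it held 67.4% (56.7% to 77.0%), 82.7% (73.7% to 89.6%), 90.1% (80.7% to 95.9%) and 64.1% (47.2% to 78.8%). The intervals of the WT and KO libraries did not overlap, and they cover counting error only.

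Per mapped read, Gm28438 was 35.8 times as frequent in KO as in WT (95% counting interval 12.1 to 175) and mt-Nd3 reads placed once 0.422 times as frequent (0.299 to 0.596). The edgeR quasi-likelihood test on total gene reads gave Gm28438 an adjusted p of 0.0648, which missed the threshold. Over 14 alternatives the adjusted p ran from 3.8e-09 to 0.390, and 3 of them passed. mt-Nd3 had 330 and 517 total gene reads, in which reads with several places count, in WT and 723, 610, 342 and 197 in KO, and the groups overlapped. The other copies held next to no reads of their own: 0 to 2 in any library for Gm28439, 0 or 1 for Gm28437, and 0 or 1 also for Gm29216, which differs from mt-Co1 at 6 bases. Gm28661, Gm10925 and Gm10222 were at 0 in every library. All of these but Gm29216 have 0 differences from their members over the bases compared, so a read inside them cannot be placed once. Their counts therefore do not show whether they are transcribed. Reads placed once at Gm28438 carry the copy's base at T3C or lie in its flank, which the table does not show. The base that the mitochondrial DNA of each mouse has there is not in the labels, so a read from the nuclear copy and a read from mitochondrial RNA with that base cannot be told apart.

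**Figure D5:**
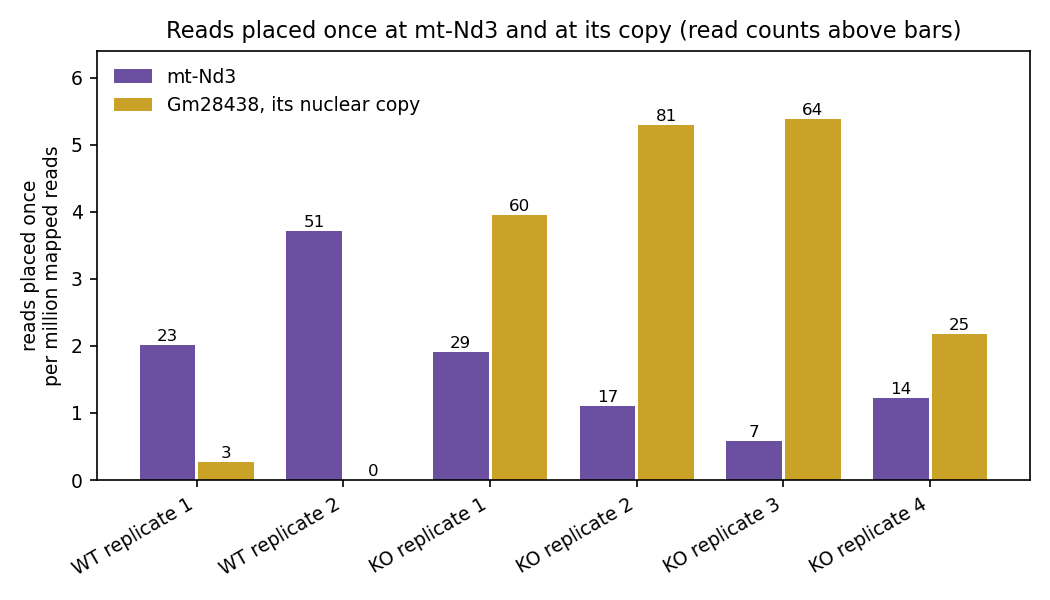
Reads placed once, scaled by mapped reads, at mt-Nd3 and at its nuclear copy Gm28438 in the 6 libraries, with read counts above the bars. In WT mt-Nd3 leads with 23 and 51 reads against 3 and 0, and in all 4 KO libraries Gm28438 leads.

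Nuclear genes that maintain, transcribe, process and translate mitochondrial RNA gave no call either. Of 123 genes on 8 lists 115 were tested and 0 passed (edgeR quasi-likelihood test), against 0.159% of all genes. An unadjusted p under 0.05 was found for 5 of the 115, against 9.9% of all genes. Log2 fold changes were above 0 in 53 and below in 62, with a median of -0.01, against 51.0% above 0 and a median of 0.01 over all genes. DESeq2 and limma-voom called 0. In DNA maintenance (14 tested, 9 above 0), Slc25a4, the ADP/ATP carrier of the inner membrane, was at 159 and 164 CPM in WT and at 123, 135, 115 and 95.4 in KO. All KO libraries were below WT, with a log2 fold change of -0.45 (SE 0.16, adjusted p = 0.418). The mitochondrial nuclease Exog was at 0.73 (SE 0.32) and Mpv17, an inner membrane protein, at -0.58 (SE 0.26).

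In transcription (10 tested, 3 above 0), Mterf1a, a termination factor that binds downstream of the rRNA genes, was at 7.43 and 4.95 CPM in WT and at 1.61, 3.76, 2.44 and 0.489 in KO. KO was below WT throughout at these low counts, with a log2 fold change of -1.49 (SE 0.68, adjusted p = 0.506, edgeR quasi-likelihood test). Mrpl12, a ribosomal protein also reported to bind the polymerase, was at -0.26 (SE 0.18), and the elongation factor Tefm at 0.39 (SE 0.35). Named for their role after values were seen, the RNA polymerase Polrmt was at -0.13 (SE 0.17), the DNA-packaging factor Tfam at -0.18 (SE 0.17) and the initiation factor Tfb2m at 0.14 (SE 0.25), each with overlapping groups.

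In RNA processing and decay (20 tested, 7 above 0), Hsd17b10, a subunit of the enzyme that cuts the leader from mitochondrial tRNAs, was at -0.38 (SE 0.17), the helicase Supv3l1 at -0.43 (SE 0.20) and Slirp at -0.69 (SE 0.33, adjusted p = 0.529, edgeR quasi-likelihood test). Slirp binds mitochondrial mRNAs with Lrpprc, which stood at -0.17 (SE 0.15). Slirp was at 18.7 and 25.5 CPM in WT and at 15.7, 11.5, 9.42 and 18.6 in KO, where KO replicate 4 all but reached the lower WT library. The tRNA 3′ processing enzyme Elac2 was at -0.13 (SE 0.18) and the poly(A) polymerase Mtpap at 0.20 (SE 0.22), both named for their role.

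Among rRNA modification and ribosome assembly genes (15 tested, 8 above 0), Mettl17 was at 0.75 (SE 0.36), Eral1, a GTPase that binds the small-subunit rRNA, at 0.38 (SE 0.31), and Mettl15, a methyltransferase of that rRNA, at 0.54 (SE 0.46). In tRNA modification (13 tested, 7 above 0), Trnt1, which adds the CCA end, was at -0.29 (SE 0.17), Trit1 at 0.31 (SE 0.26) and Trmt5 at 0.39 (SE 0.34). Of the aminoacyl-tRNA synthetase list (22 tested, 8 above 0), Qrsl1, a subunit of the enzyme that forms glutaminyl-tRNA, was at 19.3 and 19.0 CPM in WT and at 13.3, 12.3, 12.6 and 12.7 in KO. These values were tight within each group and apart between them, with a log2 fold change of -0.59 (SE 0.27, adjusted p = 0.521, edgeR quasi-likelihood test). Sars2 and Mars2, which charge the serine and methionine tRNAs, were at 0.57 (SE 0.31) and 0.44 (SE 0.25). In translation factors (11 tested, 5 above 0), the release factor Mtrf1l was at 0.54 (SE 0.24), Gfm2 at 0.44 (SE 0.25) and Mtif2 at -0.39 (SE 0.24). In regulators of biogenesis (10 tested, 6 above 0), Yy1 was at 0.19 (SE 0.13), Pprc1 at 0.19 (SE 0.14) and Gabpa at 0.21 (SE 0.17). None of these genes passed the threshold.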

How the data were processed

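Per the labels, a phenol-based reagent was used to extract RNA, and libraries were made with a directional RNA kit. Coordinates are those of mm10, the build in the submitters' processing notes. No source used here gives the aligner, the counting tool, any rRNA or poly(A) selection, the read length or whether strand was used. The deposit is 1 table of the authors whose expression values are read counts per gene, per the file headers, beside counts of unique and total exon and gene reads. Expression values are 0 for rRNAs and tRNAs, whose exon length is 0. The deposited RPKM values of the authors served only to recover mapped reads per library. From the test that the header names EDGE, the authors deposited p-values (raw and adjusted) and a score, the signed fold change, above 0 where KO is higher. A further 54 columns of values per library were not used. Positions count from 0 in the table and were raised by 1.

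In R 4.3.3, edgeR 4.0.16 (with limma 3.58.1) filtered genes with filterByExpr by genotype, scaled libraries by TMM and ran the quasi-likelihood F test of genotype, with no other term, over 2 WT and 4 KO libraries. Benjamini-Hochberg adjustment covered all genes kept, at a threshold of 0.05. CPM use TMM-scaled library sizes, except for marker sums, which use the plain total of expression values. The total of expression values was 2121240 to 5137628 per library. Levels per kilobase use total gene reads over row length. Sequences came from the GENCODE M21 transcripts, read with Biopython 1.88. RNA classes and respiratory complexes were set from the gene symbols, and strands came from the GENCODE M21 annotation. Ratios of summed reads carry exact 95% counting intervals (scipy 1.17.1). Tables were made with pandas 2.3.3 and figures with matplotlib 3.10.9. The edgeR test was run on simulated counts made from the means and depths of these libraries. Counts of the libraries of a group differed beyond sampling noise in every pair.

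Members, lists and tests were chosen with earlier results of these data known. All 37 members are named. From each of 8 lists of nuclear genes the 3 with the smallest p are named. Nuclear copies, Elovl6 and CT010467.1 are named by rule, and Polrmt, Tfam, Tfb2m, Lrpprc, Elac2, Mtpap and Lars2 were added after their values were seen. The genes of the T and NK marker list and the markers Ly6a, Hoxb5, Pax5, Ebf1, Dntt, Hbb-bs and Hba-a1 were added likewise. Of 175 list symbols 3 were not matched. Alternatives were DESeq2 size factors, the DESeq2 1.42.0 Wald test, limma-voom with sample weights, no filter, a mean of 5 CPM, nuclear library sizes without CT010467.1, other read counts, each library left out, and the replicate number as a block. After the data were seen, unique gene reads, the removal of KO replicates 3 and 4 and the alternatives for the fit on total gene reads were added.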

Additional observations from a re-analysis of the deposited data

Results flagged for a closer look

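In 5 of 98 values tested for a single library apart from the rest of its group, 1 of the 4 KO libraries stood apart, about as many as chance gives, which is 1 in 20 groups. In KO replicate 4, mt-Nd4 was at 484 CPM of expression values against 452 to 455 in the other KO libraries, the ratio of mt-Rnr1 to mt-Rnr2 reads was 0.693 against 0.741 to 0.747, and mt-Co3 made up 0.113% of mitochondrial mRNA expression values against 0.0868% to 0.0910%. In KO replicate 1, mt-Nd2 was at 217 CPM of total gene reads against 181 to 184. In KO replicate 3, mt-Tf, the tRNA of phenylalanine, was at 1.37 CPM against 1.83 to 1.90. KO replicate 4 had the largest share of CT010467.1 and the highest neutrophil and monocyte marker sum, and KO replicate 1 the highest progenitor and B-lineage sums. Their part in these values was not tested.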

How the results depend on the processing

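The count of members called stayed at 0 in both fits under every alternative run. The number of all genes called moved. On expression values (19 called) it was 87 with DESeq2, 9 with limma-voom, 307 without a filter, 34 with the replicate block, 33 without KO replicates 3 and 4, and 2 to 30 with single libraries left out: 2 without WT replicate 1, 10 without WT replicate 2, 12 and 11 without KO replicates 2 and 3, and 30 without KO replicate 4. On total gene reads (23 called) it was 110, 9 and 385 under the first 3 of these, 12 at a mean of 5 CPM, and 4 to 24 with single libraries left out: 4 and 11 without WT replicates 1 and 2, and 14 and 12 without KO replicates 2 and 4. In the nuclear lists 1 gene, Lars2, was called without a filter (log2 0.78, adjusted p = 0.0026, edgeR quasi-likelihood test), where the main value was 0.79 with an adjusted p of 0.623. The cause was not tested.

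Fold changes near 0 changed sign. mt-Nd3 went from -0.87 on expression values to 0.086 on total gene reads and 0.18 on total exon reads, and was -1.10 on unique gene reads, which omit the reads shared with Gm28438. With single libraries left out, expression values gave -0.093 to 0.54 for mt-Atp6, -0.20 to 0.032 for mt-Co1, -0.053 to 0.32 for mt-Nd1 and -0.032 to 0.33 for mt-Nd5. Total gene reads gave -0.040 to 0.46 for mt-Atp8, -0.25 to 0.020 for mt-Co1, -0.24 to 0.099 for mt-Co3, -0.013 to 0.20 for mt-Cytb, -0.092 to 0.25 for mt-Nd1, -0.16 to 0.38 for mt-Nd3, -0.056 to 0.26 for mt-Nd5, -0.38 to 0.094 for mt-Rnr1, -0.41 to 0.043 for mt-Rnr2 and -0.17 to 0.84 for the tRNA median. On these reads mt-Co3 was 0.035 with the replicate block and 0.025 without KO replicates 3 and 4, and the tRNA median -0.052 and -0.16. mt-Nd2, mt-Nd4, mt-Nd6 and mt-Co2 kept their sign under every alternative in both fits.

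The differences in share (KO minus WT, percentage points) went from 4.01 on expression values to 2.43 on total gene reads and 2.49 on total exon reads for complex I, from 0.64 to 0.30 and 0.32 for complex III, and from 0.33 to 1.76 and 1.80 for complex V. Gm28438 passed the threshold with DESeq2 (adjusted p = 2.4e-05), without a filter (3.8e-09) and on unique gene reads (0.0396, edgeR), and its log2 fold change was 4.15 to 8.86 with single libraries left out. Its own unique and total gene reads are the same counts, so the fit on unique gene reads changed only the other genes.

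The labels do not say whether the replicate numbers pair the libraries. The differences between numbers 1 and 2 correlated at -0.094 between genotypes over 11969 genes, which cannot exclude a small shared effect. The block on the 4 libraries numbered 1 and 2 called 0 members. With 2 WT libraries, the standard errors of the mRNAs (at least 0.12 on the log2 scale) limit what can be detected. The 6 tRNA rows that failed the filter were too thinly read for a test.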
